A study of Mus musculus with 8 samples.

Results

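The 10 genes followed here encode proteins that end the light response of photoreceptors and reset it by calcium feedback. They were taken by name: the guanylate cyclases *Gucy2e* and *Gucy2f*, the cyclase activators *Guca1a* and *Guca1b*, the exchanger *Slc24a1*, the rhodopsin kinase *Grk1*, its calcium sensor *Rcvrn*, and the 3 parts of the RGS9 complex, *Rgs9*, *Rgs9bp* and *Gnb5*. All 10 were present among the 54532 genes of the table, and all 10 were among the 17998 genes that passed the filter on low counts. RNA of the whole mouse retina was sequenced in bulk from 4 *Mettl3*-CKO samples, of the genotype Six3-Cre+ Mettl3floxed/floxed. The other 4 samples were controls, whose genotype is given no further. The labels give the age as postnatal day 7, and the methods give the day before. Six3-Cre acts in retinal progenitor cells from embryonic stages, and the loss of METTL3 protein was shown by staining of the central retina. How many animals or retinas made up a library is not given, so p-values measure the spread between these samples only.

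In rods and cones, light closes cGMP-gated channels, and the fall in calcium that follows takes part in the recovery. Recoverin releases rhodopsin kinase as calcium falls, the kinase marks active opsin for arrestin, and the RGS9 complex speeds the hydrolysis of GTP by transducin. The activator proteins then drive the cyclases to make cGMP again, while the exchanger carries calcium out of the outer segment. At the age sampled, rods are still being completed and outer segments are only beginning to form. METTL3, the enzyme deleted here, is the catalytic subunit of the complex that writes N6-methyladenosine (m6A) into mRNA.

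The libraries held 16227095 to 20281517 counts. Levels are given below as CPM, counts relative to the library total after TMM scaling, and 3 counts, taken as the floor of detection, correspond to at most 0.185 CPM. *Mettl3* itself lay between 21.1 and 29.6 CPM in the *Mettl3*-CKO group and between 29.3 and 33.8 CPM in controls, a log2 fold change of -0.38 with a standard error (SE) of 0.12 (adjusted p = 0.0602, edgeR). The groups overlapped in *Mettl3*-CKO replicate 2. The sources used here do not say which exons are deleted, so reads from the rest of the gene may be included. Control replicate 1 stood apart from the other controls, with a chi-square of 23.6 to 41.2 per gene against each of them, where the other pairs within a group gave 5.01 to 14.9. Control replicate 4 held lens transcripts, with a summed level of 2079 CPM over 6 lens genes against 3.15 to 38.8 CPM in the other 7 libraries. The retinal identity of the samples was met by rod markers, whose summed level over 7 genes was 1273 to 2346 CPM in the *Mettl3*-CKO group and 2493 to 3695 CPM in controls.

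Per gene length, the levels of the 10 transcripts in control retinas ran from 28.6 FPKM down to 0.415 FPKM. FPKM, which corrects the counts for gene length and library total, was computed from the deposited counts and gene lengths. *Gnb5*, the beta subunit of the RGS9 complex, stood at 28.6 ± 3.70 FPKM (SD, n = 4), and *Rcvrn*, the calcium sensor recoverin, at 28.5 ± 5.34 FPKM. *Rgs9*, the catalytic subunit, followed at 22.0 ± 1.18 FPKM. *Guca1a* was the more abundant of the cyclase activators at 18.8 ± 9.40 FPKM. Among these 4 the control values of each gene overlapped those of the next. *Gucy2e*, the main cyclase of photoreceptors, had 5.88 ± 0.652 FPKM and *Grk1* had 5.72 ± 0.980 FPKM, again with overlapping values. *Rgs9bp*, the membrane anchor of the complex, stood alone at 2.81 ± 0.526 FPKM. *Guca1b*, *Gucy2f* and *Slc24a1* were the lowest, at 0.752 ± 0.191, 0.582 ± 0.142 and 0.415 ± 0.0658 FPKM, each overlapping its neighbour.

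The order at the top depends on the length used. With the length of the protein-coding transcript that has the longest coding sequence, an alternative added after the data had been seen, *Rgs9* came first at 57.8 FPKM and *Gnb5* second at 49.4 FPKM, while *Rcvrn* and *Guca1a* kept their values. For *Rgs9* that transcript codes for the long form of 675 residues, known from the striatum. With the length of the annotated transcript for the form of 484 residues, known from photoreceptors, the control level was 60.8 ± 3.27 FPKM. The counts are per gene and do not separate these forms. In *Mettl3*-CKO retinas the same 4 genes led, at 26.8 ± 4.84 FPKM for *Rcvrn*, 26.6 ± 3.58 for *Gnb5*, 18.3 ± 1.53 for *Rgs9* and 14.9 ± 3.93 for *Guca1a*. *Guca1b*, *Gucy2f* and *Slc24a1* stayed lowest there, between 0.529 and 0.577 FPKM.

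**Figure D1:**
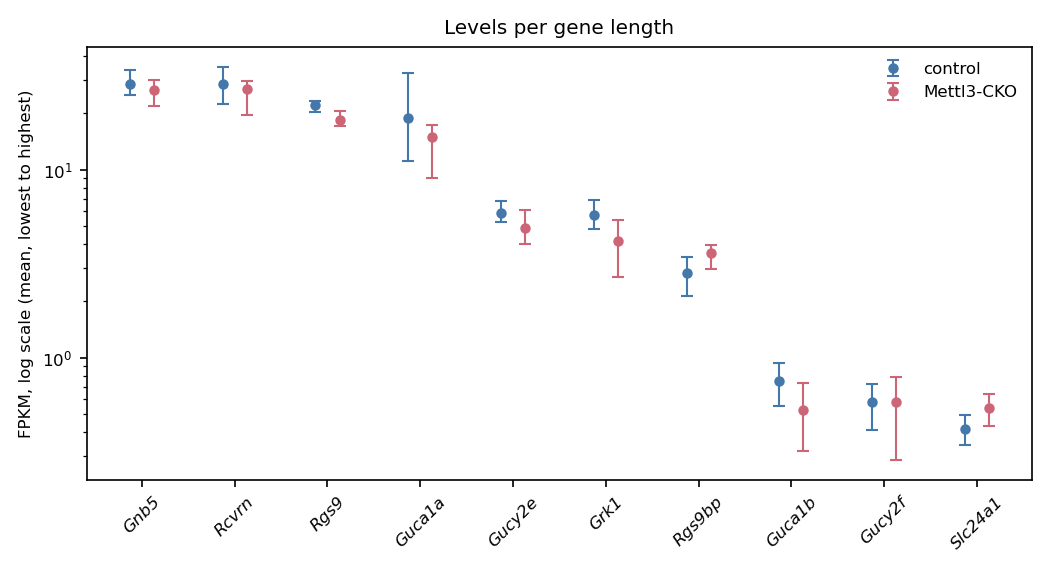
FPKM of the 10 genes in control and *Mettl3*-CKO retinas on a log scale, from the deposited gene lengths. Points are means of 4 libraries and bars run from the lowest to the highest library. *Gnb5*, *Rcvrn*, *Rgs9* and *Guca1a* are the 4 highest, and *Guca1b*, *Gucy2f* and *Slc24a1* lie below 1 FPKM on average in both groups.

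The promoters of these genes are shown because *Crx*, the homeobox factor of photoreceptors, was called lower in *Mettl3*-CKO retinas, a call that 5 of 8 omissions of a single library removed (below), and TAATCC is the core of the site CRX is known to bind. RefSeq promoters of GRCm38.p6 were found for 7 of the 10 genes, all but *Rcvrn*, *Rgs9bp* and *Guca1b*. TAATCC, or GGATTA on the other strand, was searched in the 250 bases before the start of transcription. It was present in 4 of the 7, where 6.25% of all 32851 RefSeq promoters held it. The 100 bases before the start are printed 5′ to 3′ on the gene's strand, with the motif in capitals. They are chr11:69237023-69237122, minus strand, for *Gucy2e*, with the motif beginning at position -42. They are chrX:142196937-142197036, minus strand, for *Gucy2f*, with motifs at -84 and -59. For *Guca1a* they are chr17:47400607-47400706, minus strand, with the motif at -57, and for *Gnb5* chr9:75306188-75306287, plus strand, with the motif at -6, directly before the start.
Gucy2e: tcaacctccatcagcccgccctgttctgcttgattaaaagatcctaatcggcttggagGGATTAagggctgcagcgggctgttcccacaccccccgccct
Gucy2f: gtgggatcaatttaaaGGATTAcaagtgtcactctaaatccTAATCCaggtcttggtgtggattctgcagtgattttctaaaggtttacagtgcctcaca
Guca1a: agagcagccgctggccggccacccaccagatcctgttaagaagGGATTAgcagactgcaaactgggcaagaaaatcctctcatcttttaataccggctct
Gnb5: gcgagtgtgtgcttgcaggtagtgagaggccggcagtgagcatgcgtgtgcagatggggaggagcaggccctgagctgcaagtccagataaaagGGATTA

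In *Grk1*, *Rgs9* and *Slc24a1* these letters were not found in the window. *Grk1* and *Rgs9* were lower in *Mettl3*-CKO retinas at an unadjusted p under 0.05 (edgeR, below). *Gucy2e*, *Gucy2f*, *Guca1a* and *Gnb5*, which hold the motif, did not pass that threshold. A relation of the motif to the fold changes was not tested. A match is a run of letters and not a measured binding site.

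Since METTL3 writes m6A most often at GGACT and m6A is known to gather around stop codons, the transcripts were also searched for GGACT within 200 bases of the stop codon, in GENCODE vM21. Across 17064 genes with a full window, 38.7% held it. In the transcripts with the longest coding sequence it was present for *Rgs9*, *Rgs9bp*, *Gnb5*, *Guca1a* and *Slc24a1* and not found for *Gucy2e*, *Gucy2f*, *Guca1b*, *Grk1* and *Rcvrn*. The window of *Guca1a* was cut short, since only 99 bases follow its stop codon. For *Rgs9* the transcript of the 484-residue form is shown, where GGACT begins 124 bases after the first base of the stop codon, in the 3′ UTR at chr11:109235707-109235731, minus strand. In *Rgs9bp* it lies in the coding sequence of the single exon (chr7:35584689-35584713, minus strand). In *Gnb5* it is in coding exon 11 of 13 (chr9:75343578-75343602, plus strand), and in *Guca1a* in the coding part of exon 4 of 4 (chr17:47394730-47394754, minus strand). In *Slc24a1* it is in the 3′ UTR in exon 10 of 10 (chr9:64924370-64924394, minus strand). GGACT is in capitals and the lines read 5′ to 3′ on the mRNA.
Rgs9: agttcagaggGGACTtcccagatca
Rgs9bp: gtgccccgctGGACTgtacaggcgc
Gnb5: cctcgagtgtGGACTtctccctcag
Guca1a: cccgaagcctGGACTtgaccggcat
Slc24a1: atagaggagaGGACTatgccagaag

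*Rgs9* and *Rgs9bp*, which both hold the run, had fold changes of opposite sign (below). Methylation was not measured in these libraries, so the lines show sequence only. The paper mapped m6A in separate retinas, and those peaks were not used here.

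The comparison of *Mettl3*-CKO with control retinas asks how the transcripts of recovery differ when *Mettl3* is deleted in progenitors. None of the 10 genes passed the test, the quasi-likelihood test of edgeR, at a threshold of 0.05 on p-values adjusted by the Benjamini-Hochberg method over all genes tested. Of all genes tested, 4.05% were called lower and 6.49% higher in *Mettl3*-CKO retinas. At an unadjusted p under 0.05 the test gave 2 of the 10 lower, *Rgs9* and *Grk1*, and 1 higher, *Rgs9bp*, against 11.1% lower and 13.5% higher over all genes. DESeq2 called *Rgs9* alone, as given below. Of the 10 fold changes, 8 were below 0. Their median was -0.20 on the log2 scale, beside -0.01 over all genes tested. The values of the groups did not overlap for 1 of the 10 genes, *Rgs9*, which was lower, where 7.58% of all genes had non-overlapping groups that were lower and 9.77% higher. In bulk RNA fewer photoreceptors and less RNA per photoreceptor cannot be told apart.

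**Figure D2:**
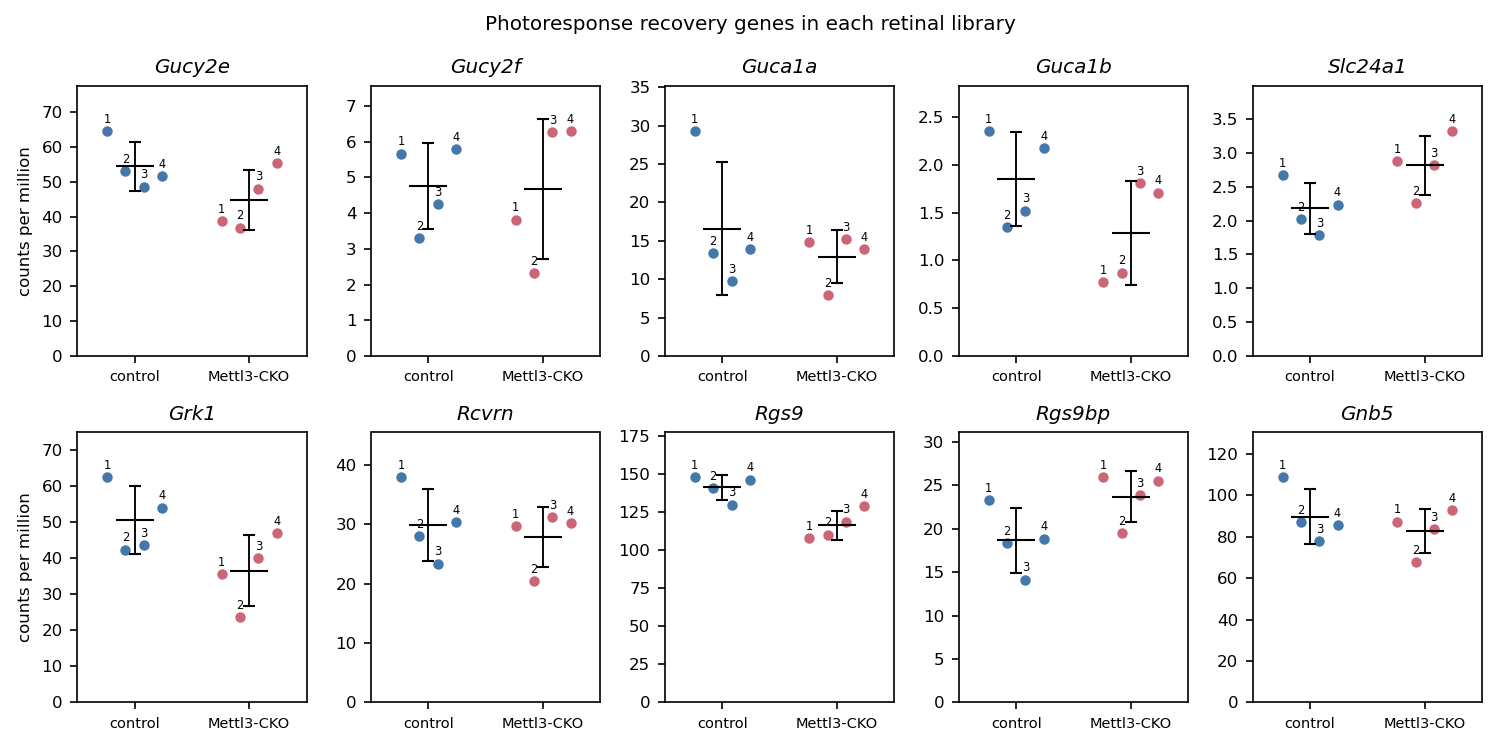
CPM of each gene in each library, with the replicate number beside each point, and with the group mean and SD (n = 4) in black. Control replicate 1 is the highest control for every gene but *Gucy2f*, and the groups are fully separated for *Rgs9*, with 108 to 129 CPM in *Mettl3*-CKO and 130 to 148 CPM in controls.

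Values of single genes are listed for replicates 1 to 4 of the *Mettl3*-CKO group and then for replicates 1 to 4 of the controls. The cyclases and their activators, which restore cGMP, were on average lower or level in *Mettl3*-CKO retinas, with no call. *Gucy2e* (chr11:69218117-69237036, minus strand, GRCm38) had 38.7, 36.8, 48.0 and 55.3 CPM against 64.6, 53.1, 48.6 and 51.6 CPM. Of the *Mettl3*-CKO libraries, 3 lay below every control and replicate 4 lay among them. The log2 fold change was -0.28 (95% interval -0.57 to 0.0077, SE 0.13, adjusted p = 0.216, edgeR), or 0.822 of the control level. *Gucy2f* (chrX:142081160-142196931, minus strand), the second cyclase, had 3.82, 2.32, 6.27 and 6.30 CPM against 5.67, 3.31, 4.25 and 5.80 CPM. Its *Mettl3*-CKO libraries spread wider than the controls and took both the lowest and the highest of the 8 values. Its log2 fold change was -0.02 (SE 0.29, adjusted p = 0.978, edgeR), and its interval, from 0.637 to 1.53 of the control level, leaves room for a change in either direction.

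*Guca1a* (chr17:47394558-47400584, minus strand) and *Guca1b* (chr17:47385393-47392967, plus strand) are neighbours on the chromosome that point toward each other without overlapping. *Guca1a* had 14.8, 7.89, 15.2 and 13.9 CPM against 29.3, 13.4, 9.76 and 13.9 CPM. One control, replicate 1, was far above all other libraries, and the remaining controls lay within the *Mettl3*-CKO range. The log2 fold change of -0.36 (SE 0.30, adjusted p = 0.510, edgeR) became 0.07 without control replicate 1. *Guca1b* rested on 14 to 44 reads in a library, so that counting error alone was 18.7% of its mean. It had 0.774, 0.870, 1.81 and 1.71 CPM against 2.35, 1.35, 1.52 and 2.18 CPM, with *Mettl3*-CKO replicates 1 and 2 below all controls and replicates 3 and 4 within their range. Its log2 fold change was -0.51 (SE 0.33, adjusted p = 0.385, edgeR), with an interval from 0.427 to 1.16 of the control level.

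*Slc24a1* (chr9:64922861-64951607, minus strand), the sodium, calcium and potassium exchanger of rods, was higher on average in *Mettl3*-CKO retinas, with no call. It had 2.88, 2.26, 2.82 and 3.32 CPM against 2.68, 2.02, 1.78 and 2.24 CPM, from 33 to 68 reads in a library. In 3 *Mettl3*-CKO libraries it was above every control and in replicate 2 it was below control replicate 1 alone. On the log2 scale the difference was 0.37 (95% interval -0.10 to 0.84, SE 0.22, adjusted p = 0.319, edgeR).

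The kinase and its calcium sensor were both lower on average in *Mettl3*-CKO retinas, and neither was called. *Grk1* (chr8:13405081-13421951, plus strand), which phosphorylates active opsin, had 35.6, 23.7, 40.0 and 47.0 CPM against 62.4, 42.4, 43.6 and 54.0 CPM. The first 3 *Mettl3*-CKO libraries were below all controls, and replicate 4 was above 2 of them. The log2 fold change was -0.47 (95% interval -0.86 to -0.07, SE 0.18), with an unadjusted p of 0.0239 and an adjusted p of 0.131 (edgeR). *Rcvrn* (chr11:67695326-67703333, plus strand), which holds the kinase back while calcium is high, had 29.6, 20.4, 31.2 and 30.2 CPM against 37.9, 28.0, 23.3 and 30.3 CPM. Only *Mettl3*-CKO replicate 2 was below all controls. Its log2 fold change was -0.10 (SE 0.16, adjusted p = 0.753, edgeR), an interval from 0.735 to 1.18 of the control level. *Rcvrn* lies on the strand opposite to *Glp2r*, with no shared exon bases.

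In the RGS9 complex, *Rgs9* and its anchor had differences of opposite sign, and none of the 3 genes was called. *Rgs9* (chr11:109225355-109298129, minus strand), the subunit that speeds GTP hydrolysis, had 108, 110, 119 and 129 CPM against 148, 141, 130 and 146 CPM. Every *Mettl3*-CKO library lay below every control, with 129 and 130 CPM as the nearest values. The log2 fold change was -0.28 (95% interval -0.46 to -0.09, SE 0.09), or 0.825 of the control level, with an unadjusted p of 0.00646 and an adjusted p of 0.0565 (edgeR). *Rgs9bp* (chr7:35578993-35585582, minus strand), which tethers the complex to the disc membrane, had 25.9, 19.5, 23.9 and 25.5 CPM against 23.3, 18.3, 14.1 and 18.9 CPM. All *Mettl3*-CKO libraries were above 3 of the 4 controls, and control replicate 1 was above replicate 2 of them. The difference was 0.35 on the log2 scale (95% interval 0.028 to 0.66, SE 0.15), with an unadjusted p of 0.0351 and an adjusted p of 0.164 (edgeR). *Gnb5* (chr9:75306288-75345876, plus strand), the beta subunit that other regulators of this class also need for their stability, had 87.3, 67.7, 83.7 and 92.7 CPM against 109, 87.1, 77.8 and 85.6 CPM. These ranges overlapped broadly, with a log2 fold change of -0.12 (SE 0.12, adjusted p = 0.616, edgeR) and an interval from 0.770 to 1.11 of the control level. *Gnb5* shares 248 exon bases with *Gm19531* on the opposite strand, which had 18 to 43 counts, and the counting is not stated to use strand.

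**Figure D3:**
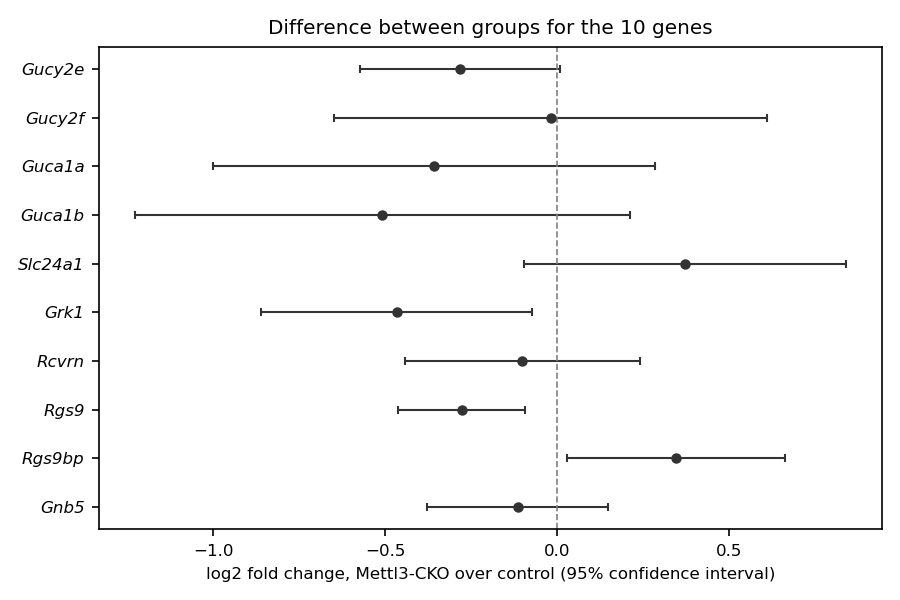
Log2 fold change of *Mettl3*-CKO over control for the 10 genes with 95% confidence intervals from edgeR. The intervals of *Grk1* and *Rgs9* lie below 0 and that of *Rgs9bp* above 0 before adjustment for the number of genes tested, and the other 7 include 0.

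Which of the 10 was called depended on the test and on the libraries used. DESeq2 called *Rgs9* lower (adjusted p = 0.0236), where it called 5.79% of all genes lower. In limma voom with sample quality weights *Rgs9* was called lower (adjusted p = 0.0359, with 8.71% of all genes lower) and *Rgs9bp* higher by 0.51 on the log2 scale (adjusted p = 0.0102, with 11.9% higher). Without the filter on low counts edgeR called *Grk1* lower in place of *Rgs9* (adjusted p = 0.0250, with 2.37% lower). Over edgeR, DESeq2 and limma voom with all libraries, and over the other scalings, the replicate block and the missing filter, the adjusted p ranged from 0.0236 to 0.115 for *Rgs9*, from 0.0250 to 0.177 for *Grk1* and from 0.0102 to 0.169 for *Rgs9bp*. Leaving out *Mettl3*-CKO replicate 4 called *Rgs9* lower (adjusted p = 0.0477, edgeR, with 3.14% lower). Leaving out control replicate 1 called *Rgs9* lower (adjusted p = 0.0432, with 7.07% lower) and *Rgs9bp* higher (0.47 on the log2 scale, adjusted p = 0.0203, with 10.3% higher). The sign of the fold change was kept under every alternative run for *Rgs9*, *Rgs9bp*, *Slc24a1*, *Grk1*, *Gucy2e* and *Guca1b*. It turned for *Guca1a*, *Gucy2f*, *Rcvrn* and *Gnb5* under some of them.

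The 10 genes shared a pattern over the libraries that the groups do not describe. Taken as log2 CPM minus the mean of the group, the mean of the 10 genes was 0.35 in control replicate 1 and -0.15, -0.26 and 0.06 in the other controls. The *Mettl3*-CKO libraries had -0.04, -0.41, 0.19 and 0.27. Control replicate 1 was the highest control for 9 of the 10 genes, and *Mettl3*-CKO replicate 2 was the lowest of its group for 8. How often this held over all genes was not computed. Control replicate 1 also stood apart over all genes (above), so the pattern is not shown to be particular to the 10. Over the 8 libraries the deviations of each gene correlated with the mean of the other 9 with Pearson's r from 0.75 for *Guca1b* to 0.96 for *Grk1*. This is a description, since the points share a library and its depth. *Rgs9* moved least with the libraries, from -0.12 to 0.15, while *Guca1a* ranged from -0.66 to 0.94.

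**Figure D4:**
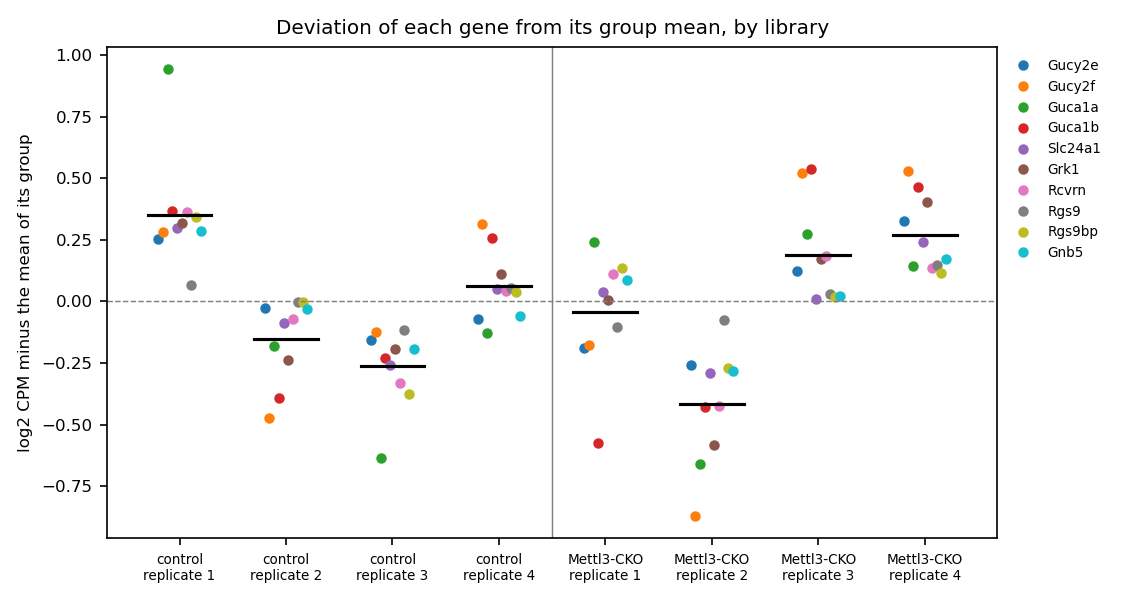
Log2 CPM of each gene minus the mean of its group, by library, with the mean of the 10 genes as a black bar. Control replicate 1 stands high and *Mettl3*-CKO replicate 2 low for nearly all of the genes.

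The rod marker sum moved with these values. It was highest in control replicate 1 (3695 CPM) and lowest in *Mettl3*-CKO replicate 2 (1273 CPM), and within the *Mettl3*-CKO group it was highest in replicate 4 (2346 CPM), as the mean of the 10 genes was. All 7 rod markers had a fold change below 0 and 5 were called lower. For this and the marker counts that follow, the shares over all genes tested were 4.05% lower and 6.49% higher. The cone marker sum was 437 to 625 CPM in *Mettl3*-CKO and 506 to 613 CPM in controls, with 1 of 5 tested cone genes called lower. *Opn1mw*, the other cone opsin, had at most 6 reads in a library. The sum over 6 genes of cycling progenitors was 1580 to 2165 CPM against 1175 to 1467 CPM, with 2 of the 6 called higher. Pigment epithelium markers summed to 34.7 to 53.2 CPM in *Mettl3*-CKO and 61.0 to 84.1 CPM in controls, with 3 of 4 tested genes lower. Of 4 vascular markers 3 were called lower, *Cldn5*, *Pecam1* and *Cdh5*, each with groups that did not overlap. The sum of the 4 overlapped, at 532 to 625 against 523 to 638 CPM. Most of that sum was *Kdr*, which was not called, at 524 to 616 against 481 to 624 CPM. Among the other tested markers, 1 of 3 bipolar and 1 of 4 amacrine genes were called lower and 1 of 4 ganglion cell genes was called higher. Of 4 genes of Müller glia 1 was called lower and 1 higher. Of 3 tested lens genes 2 were called lower, *Cryaa* and *Cryba1*, with overlapping groups. Control replicate 4 had 1168 and 622 CPM of these, where the other controls had at most 23.0 and 9.04 CPM. The part of all these cell types in the differences of the 10 genes was not tested. With control replicate 1 and *Mettl3*-CKO replicate 2 both left out, a choice made after seeing the data, edgeR called *Rgs9bp* higher by 0.56 on the log2 scale (adjusted p = 0.00686, where 11.5% of all genes were called higher). *Rgs9* was then -0.23 (adjusted p = 0.0761, edgeR) and *Slc24a1* was 0.59 (adjusted p = 0.0852). With these 3 against 3 libraries the groups did not overlap for 1 of the 10 genes that was lower, *Rgs9*, and for 2 that were higher, *Rgs9bp* and *Slc24a1*, beside 18.2% lower and 19.9% higher over all genes. *Grk1* moved to -0.19, while *Guca1a* was 0.25 and *Gucy2f* was 0.30.

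Ratios between genes within a library do not depend on how libraries are scaled. For partners, 4 ratios were tested by two-sided exact permutation over the samples, on log2 ratios. These 4 were chosen with earlier results of these data known, so their p-values are given as a description. With 4 against 4 samples this test cannot give a p under 0.0286. *Gucy2e* had 10.1, 15.9, 7.66 and 8.77 times the counts of *Gucy2f* in the *Mettl3*-CKO libraries against 11.4, 16.1, 11.4 and 8.89 times (exact permutation p = 0.457). *Guca1a* had 19.1, 9.07, 8.41 and 8.11 times the counts of *Guca1b* against 12.5, 9.96, 6.41 and 6.39 times (exact permutation p = 0.514). Both ratios overlapped between the groups in part. For the first, *Mettl3*-CKO replicates 3 and 4 lay below every control and control replicate 2 above every *Mettl3*-CKO library. For the second, control replicates 3 and 4 lay below every *Mettl3*-CKO library and *Mettl3*-CKO replicate 1 above every control, and without that library the mean log2 difference of 0.26 became -0.012. *Rgs9* to *Gnb5* was 1.24, 1.63, 1.42 and 1.39 against 1.36, 1.62, 1.67 and 1.71 (exact permutation p = 0.229). *Grk1* to *Rcvrn*, the kinase against its sensor, was 1.20, 1.16, 1.28 and 1.56 against 1.65, 1.51, 1.87 and 1.78. In it 3 *Mettl3*-CKO libraries were below all controls and replicate 4 lay above control replicate 2 only, a mean log2 difference of -0.39 (exact permutation p = 0.0571, and 0.229 after adjustment over the 4 ratios).

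All 45 pairs were also compared, after the data had been seen, and no p-values are given for them. In 12 of the 45 the groups did not overlap, beside 17.0% of all pairs among the genes tested. All 12 had *Rgs9bp* or *Slc24a1* on one side, 6 pairs each, and in all 12 that gene was the relatively higher one in *Mettl3*-CKO retinas. *Rgs9* to *Rgs9bp*, the catalytic subunit against its anchor, was 4.18, 5.67, 4.98 and 5.06 against 6.35, 7.70, 9.22 and 7.77. The means were 4.97 ± 0.611 and 7.76 ± 1.17 (SD, n = 4), and the nearest values were 5.67 and 6.35. *Grk1* to *Slc24a1* was 12.4, 10.5, 14.2 and 14.2 in *Mettl3*-CKO and 23.3, 21.0, 24.5 and 24.2 in controls, the wider gap. *Rgs9bp* to *Slc24a1* was level, with 8.44 ± 0.556 and 8.53 ± 0.484 (SD, n = 4).

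**Figure D5:**
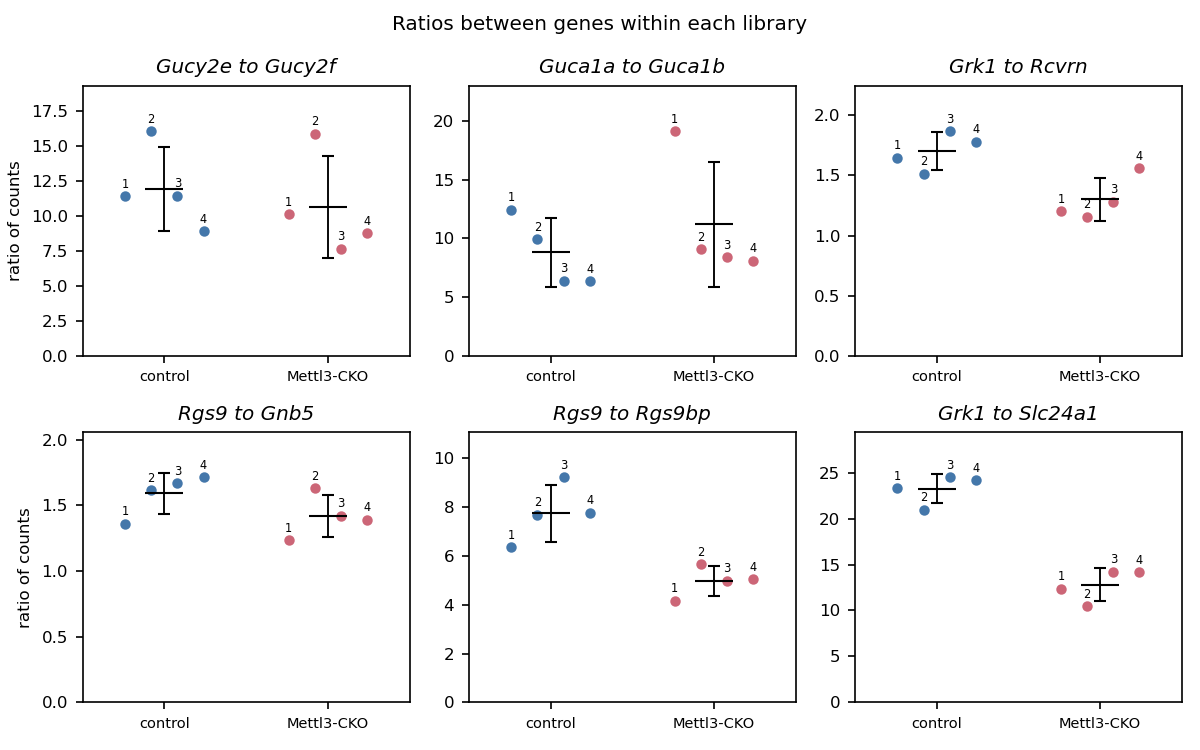
Ratio of the counts of 2 genes within each library, with the replicate number beside each point and the group mean and SD (n = 4) in black. The first 4 ratios are those of the partners, and *Rgs9* to *Rgs9bp* and *Grk1* to *Slc24a1* were picked from all pairs with the values in view. In those 2 panels no *Mettl3*-CKO library reaches the lowest control.

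The genes that start the light response and the remaining shut-off genes were set beside the 10. Of 26 tested genes in this list of 27, 14 were lower and 1 higher at an unadjusted p under 0.05 (edgeR). Their median log2 fold change was -0.50. Over all genes tested that threshold gave 11.1% lower and 13.5% higher. After adjustment 9 of the 26 were called lower and 0 higher, beside 4.05% and 6.49% of all genes. Among the rod genes these were *Pde6b*, a catalytic subunit of the phosphodiesterase (-1.09, SE 0.24, adjusted p = 0.0150, edgeR), *Gnat1*, the alpha subunit of transducin (-0.98, adjusted p = 0.0284), and *Gngt1*, its gamma subunit (-0.75, adjusted p = 0.0445). *Cngb1*, a channel subunit, was -0.73 (adjusted p = 0.0315) and *Gnb1*, the beta subunit of rod transducin, -0.43 (adjusted p = 0.0325). Among the cone genes they were *Pde6h* (-0.69, adjusted p = 0.0431) and *Gnb3* (-0.41, adjusted p = 0.0306). Of 9 other shut-off, calcium and chaperone genes 2 were called lower. They were *Sag*, the rod arrestin that binds opsin after *Grk1* has acted (-0.83, adjusted p = 0.0187), and *Unc119*, a carrier of lipid-modified transducin (-0.70, adjusted p = 0.00567). All 9 of that group had fold changes below 0, with 7 lower at an unadjusted p under 0.05 and a median of -0.51. *Pdc*, the most counted of those 9, was -0.55 (adjusted p = 0.0946). The 9 calls became 1 without *Mettl3*-CKO replicate 1, 2 without *Mettl3*-CKO replicate 2, 3 without control replicate 4, 4 without control replicate 2 and 5 without *Mettl3*-CKO replicate 3, and 10 at most. The fold changes of the 9 stayed below 0 on each omission, from -0.78 to -0.57 for *Unc119* and from -0.49 to -0.31 for *Gnb1*. The share of all genes called is not given for the omissions named, so the loss of calls is not shown to be particular to these genes.

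Relatives of the 10 genes, which mostly act outside photoreceptors, had a median log2 fold change of -0.08 over the 28 tested of 30. Of these 28, 3 were called lower and 2 higher, where 4.05% of all genes tested were lower and 6.49% higher. The 3 lower were beta subunits, *Gnb1* and *Gnb3*, which are also in the list above, and *Gnb2* (-0.35, SE 0.07, adjusted p = 0.0119, edgeR), which is widely used, while *Gnb5* itself was -0.12 and not called. *Hpcal1*, a neuronal calcium sensor of the family of *Rcvrn*, rose by 0.65 (SE 0.15, adjusted p = 0.0168, edgeR), from 24.5 ± 5.09 to 38.6 ± 6.49 CPM (SD, n = 4). *Grk4*, another receptor kinase, rose by 0.61 (SE 0.17, adjusted p = 0.0369, edgeR), from 4.18 ± 0.496 to 6.37 ± 0.974 CPM, with no overlap. The most counted gene of each other role was not called: *Npr2* among the cyclases (0.25, adjusted p = 0.173), *Ncald* among the calcium sensors (-0.09, adjusted p = 0.687), *Grk6* among the kinases (-0.18, adjusted p = 0.264), *Rgs7* among the R7 regulators (-0.10, adjusted p = 0.695) and *Slc24a3* among the exchangers (-0.10, adjusted p = 0.674). *Gucy2c* and *Gucy2d*, cyclases of intestine and olfactory neurons, had at most 5 and 2 reads in a library and were not tested. The 3 lower calls became 1 without *Mettl3*-CKO replicate 1, *Mettl3*-CKO replicate 2 or control replicate 4. The 2 higher calls became 0 without *Mettl3*-CKO replicate 1 or control replicate 2 and 1 without *Mettl3*-CKO replicate 3 or 4 or control replicate 3 or 4. On each omission the fold change stayed above 0, from 0.56 to 0.81 for *Hpcal1* and from 0.52 to 0.69 for *Grk4*.

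Of 9 transcription factors of photoreceptors, 4 were called lower and 0 higher, beside 4.05% and 6.49% of all genes tested. Fold changes were below 0 for 7 of the 9. *Nr2e3*, which represses cone genes in rods, fell by 0.81 on the log2 scale (SE 0.15, adjusted p = 0.00615, edgeR), and *Nrl*, which sets rod fate, fell by 0.79 (adjusted p = 0.00861). *Crx* fell by 0.42 (adjusted p = 0.0374), from 1143 ± 91.1 to 854 ± 139 CPM (SD, n = 4), and *Neurod1* fell by 0.35 (adjusted p = 0.0148). The call of *Crx* was lost without *Mettl3*-CKO replicate 1 (adjusted p = 0.139, edgeR), *Mettl3*-CKO replicate 2 (0.101), control replicate 2 (0.0703), control replicate 3 (0.0714) or control replicate 4 (0.0628), with the fold change from -0.50 to -0.34 over all 8 omissions. The call of *Neurod1* was lost without *Mettl3*-CKO replicate 1 (adjusted p = 0.0582), and those of *Nrl* and *Nr2e3* held in each. *Otx2*, which acts before *Crx*, was -0.18 (adjusted p = 0.269). The fold changes of the 10 recovery genes, from -0.51 to 0.37, lay nearer to 0 than those of *Nrl* and *Nr2e3*.

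Outside the 10, 5 genes had the pattern over libraries most like theirs, among 11366 candidates with a mean log2 CPM of at least 3. The measure was Pearson's r of the deviations from the group means with the mean deviation of the 10 genes over the 8 libraries, given as a description. *Pla2g7*, a phospholipase that acts on platelet-activating factor, had r = 0.988, *Psg16* 0.981, *Zfp365* 0.979, *Bbs4*, a subunit of the BBSome of cilia, 0.974, and *Rp1*, a microtubule protein of the photoreceptor axoneme, 0.973. None of these 5 was called between the groups, with log2 fold changes from -0.36 for *Pla2g7* to 0.06 for *Rp1*.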

How the data were processed

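RNA-seq libraries of 4 *Mettl3*-CKO and 4 control retinas, grouped by the sample labels, were analysed from 1 deposited table. Its values are raw counts. The authors state that low-quality reads were removed, that HISAT2 placed the rest on GRCm38 (mm10), and that featureCounts counted them by gene. The counts were deposited without normalization. The annotation release and any strand setting are not given in the sources used here. The gene length column was used as deposited. The tests ran in R 4.3.3, with edgeR 4.0.16 as the main tool (filterByExpr, TMM, quasi-likelihood test, Benjamini-Hochberg over 17998 genes, threshold 0.05). The SE is the absolute log2 fold change divided by the square root of F. Log2 CPM used a prior count of 2. Limma 3.58.1 (voom, sample quality weights), DESeq2 1.42.0, other scalings, no filter on low counts, a prior count of 0.5, a replicate block and leaving out each library were alternatives. Exact permutation tests used scipy 1.17.1. Depth was 16227095 to 20281517 counts per library and the biological coefficient of variation 15%. Floors cover counting error only.

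The 10 genes, the gene lists, the marker lists and the ratios were chosen with earlier results of these data known. Named genes are the 10, every listed gene past the threshold, the most counted gene of each role and the 5 genes most alike in pattern. Promoters are from RefSeq (GRCm38.p6) and transcripts from GENCODE vM21. No pair of libraries agreed within sampling noise, so each was counted as 1 sample.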

Additional observations from a re-analysis of the deposited data

Results flagged for a closer look

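Among the values, 2 stood apart from their own group of 4 by Dixon's criterion at the 95% level, out of 28 groups examined, where chance gives about 1.4. *Rcvrn* in *Mettl3*-CKO replicate 2 was 20.4 CPM, and the other 3 libraries of that group lay between 29.6 and 31.2 CPM. The same library was the lowest of its group for 8 of the 10 genes and had the lowest rod marker sum, 1273 CPM. The log2 ratio of *Guca1a* to *Guca1b* in *Mettl3*-CKO replicate 1 was 4.08, where the other 3 were 2.94 to 3.03. *Guca1b* had the fewest reads of the 10 genes, 14 to 44 in a library, and its level in that library was 0.774 CPM, the lowest of the 8.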

How the results depend on the processing

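Other scalings (DESeq2 size factors in edgeR, library totals without TMM) changed no call or sign among the 10 genes, and over the 33 named genes for which alternatives were computed, which leaves out the 5 of like pattern, 406 of 495 alternative values kept their direction and their side of the threshold. Of the 10 genes, 0 were called, but 1 was called lower with DESeq2, with limma voom and with no filter on low counts, and 1 was called higher with limma voom and with control replicate 1 and *Mettl3*-CKO replicate 2 both left out. Leaving out 1 library at a time gave 0 to 1 lower and 0 to 1 higher. For the other phototransduction genes, 9 lower and 0 higher became 14 lower without the filter, 2 higher with limma voom, and 5 lower and 4 higher without both libraries, with 1 to 10 lower and 0 to 1 higher on leaving out 1. For the relatives, 3 lower and 2 higher became 4 higher without both libraries, with 1 to 3 lower and 0 to 3 higher on leaving out 1. The causes were not tested.

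Signs turned in limma voom for *Guca1a* (0.093), *Gucy2f* (0.18), *Rcvrn* (0.078), *Gnb5* (0.0014), *Ncald* (0.0090) and *Rgs7* (0.044). They turned without both libraries for *Guca1a* (0.25), *Gucy2f* (0.30), *Rcvrn* (0.16), *Gnb5* (0.079), *Ncald* (0.085) and *Rgs7* (0.099). On leaving out 1 library, log2 fold changes ran from -0.54 to 0.074 for *Guca1a*, -0.20 to 0.20 for *Gucy2f*, -0.20 to 0.037 for *Rcvrn*, -0.16 to 0.029 for *Ncald*, -0.16 to 0.052 for *Rgs7* and -0.17 to 0.010 for *Slc24a3*, and the log2 ratio of *Guca1a* to *Guca1b* from -0.012 to 0.45.

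Replicate numbers are shared by the groups. The deviations of same-numbered libraries correlated with r = -0.11, 0.22, -0.11 and 0.25 for numbers 1 to 4. Libraries of different numbers gave r from -0.23 to 0.26. For numbers 2 and 4 the same-numbered control had the highest r with its *Mettl3*-CKO library, and for 1 and 3 it did not. The main test did not take the numbers to pair the libraries. With the replicate block 0 of the 10 genes were called, 6 of the other phototransduction genes were lower, and 2 relatives were lower and 1 higher. At this depth counting error alone was 18.7% of the mean for *Guca1b*, 14.8% for *Slc24a1* and 10.7% for *Gucy2f*, and 2.07% to 6.09% for the other 7 genes.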
